A study of Mus musculus with 10 samples.

Results

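The comparison concerned activated nuclei of the ventral tegmental area in 3 mice reared under early-life stress and 2 mice reared under standard conditions. These 5 libraries were taken by their titles from the 10 of the series. Each came from its own animal, an adult older than postnatal day 60 of the genotype ArcCreERT2 x Sun1/+. In such mice the immediate early gene Arc drives a tamoxifen-dependent Cre recombinase, and recombined cells carry a tagged Sun1 protein in the nuclear envelope. Nuclei with the tag were pulled out with magnetic beads, and the labels call them activated. The stressed group held 2 males and 1 female and the standard-reared group 1 male and 1 female. Both groups carry the same alleles and went through the same sort, so they differ by label in rearing and in the share of males. The sources used here state neither when tamoxifen was given nor what form the early-life stress took.

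ATAC-seq reads open chromatin through the Tn5 transposase, which cuts and tags DNA where nucleosomes leave it exposed. Promoters and enhancers in use appear as peaks. The ventral tegmental area holds dopamine neurons that project to the forebrain and act in reward, beside GABA and glutamate neurons and glia. Early-life stress is known to alter later stress responses that involve this region. Arc is switched on in neurons after strong activity, so the tag marks cells by a past response and not by cell type. Nuclei were pooled within an animal, so a peak's height joins how open the site was and how many of the nuclei had it open, and these cannot be told apart.

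Depth differed among the libraries. It was estimated as the lowest background solved from the fold and p of the peaks, divided by the width of the narrowest peak. By this estimate it was 10.1, 6.86 and 6.16 fragments per kb of effective genome in stressed replicates 1 to 3. It was 10.9 and 5.30 in standard-reared replicates 1 and 2. Fragment length was not measured, and the width of the narrowest peak of each list stood for it. These widths were alike, at 134 to 161 bp in stressed and 151 and 152 bp in standard-reared libraries. The lists held 15128 to 19710 distinct intervals in the stressed group, against 39783 and 17283 in the standard-reared group. Each list was therefore shortened to its 15128 intervals with the highest -log10 q. The lowest -log10 q kept was 2.07, 3.42 and 1.31 in the stressed libraries and 5.16 and 2.92 in the standard-reared ones. Standard-reared replicate 1 thus kept 38.0% of its list, while stressed replicate 3 kept all of its list. The sex labels were checked on the sex chromosomes. The 2 female libraries had 433 (stressed) and 457 (standard-reared) X peaks among those kept, and the 3 male libraries 315 and 372 (stressed) and 350 (standard-reared). Y peaks did not separate the sexes, with 6 and 9 in stressed males and 4 in the stressed female, against 7 in the standard-reared male and 7 in the standard-reared female. At 1 Y site both stressed males had a peak and neither female did, but the standard-reared male had none. The male label of standard-reared replicate 1 was thus met by its X count and not by this site.

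Many sites of activated nuclei were found in both rearing groups. Merged over the 5 shortened lists, 22947 regions held a peak, and 9250 of them (40.3%) had one in every library. A further 7408 regions (32.3%) appeared in a single list, 1403 to 1460 from each stressed library and 1952 and 1153 from the standard-reared ones. The 9250 shared regions were wide, with a median of 804 bp, against 274 bp for regions of 1 to 4 lists. A merged region spans the peaks of all its lists, so part of this contrast follows from the merging. Of them 9049 lay on autosomes, 200 on X and 1 on Y, and 31 lay in the first 3.5 Mb of a chromosome, the end nearest the centromere in mouse. Of the shared regions, 32.1% also had a peak in all 5 non-activated lists and 2.06% in none, whereas 54.4% of the regions of 1 to 4 lists had none there.

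**Figure D1:**
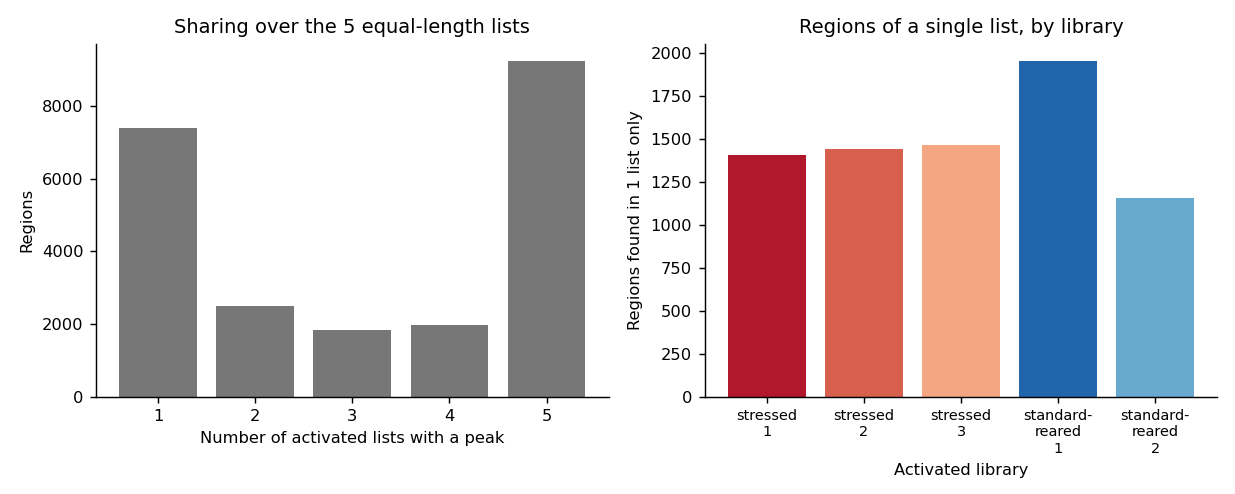
Number of merged regions by how many of the 5 equal-length activated lists held a peak (left) and the regions found in 1 list only, by library (right). Regions of all 5 lists were the most frequent, with 9250 of 22947, followed by 7408 of a single list. Stressed libraries gave 1403 to 1460 of the single ones, and standard-reared libraries 1952 and 1153.

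Some sites led every list. Sites were ordered by their lowest rank over the 5 lists, and the first of them was on chromosome 3 (mm39, 5925401 to 5925900). Its fold over background was 24.9, 25.1 and 23.0 in stressed libraries and 26.8 and 28.8 in standard-reared libraries, at or above percentile 99.99 of each list. The region on chromosome 16 (57211583 to 57212115) followed, with folds of 22.5 to 23.6 in stressed and 23.7 and 25.45 in standard-reared libraries. The next 3 regions of that order lay on chromosomes 11 (108902457 to 108902920), 18 (68825090 to 68825372) and 9 (123290874 to 123291233). All 5 were picked for being near the top of every list, so their likeness between the groups follows from the choice.

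The test asked whether early-life stress leaves a lasting difference in how open single sites are in activated cells, which the title of the series raises. Folds of separate lists share no scale, so the fold of each peak was turned into its rank within the library. Ranks are given as percentiles, where 100 is the highest fold. For the test they were turned into normal scores, in which 1 unit is 1 SD of a normal curve. No region passed. Of the 9250 regions tested with limma, 0 (0%) had a Benjamini-Hochberg adjusted p under 0.05, and the lowest adjusted p was 0.119, shared by 7 regions. At an unadjusted p under 0.05 there were 774 regions (8.37%), 367 ranked higher and 407 lower in stressed mice. With sex as a term in the fit, limma called 7 regions. With log2 folds in place of ranks, after quantile normalization, it called 2. The median difference, stressed minus standard-reared, was -0.0041, with 95% of regions between -1.03 and 0.98 and a median standard error of 0.41. In percentiles, the median size of the difference was 9.05 points, and 460 regions (4.97%) differed by over 30 points. The labels give no batch, and each library is a separate animal.

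Regions were then sorted by whether the groups overlapped. All 3 stressed libraries ranked above both standard-reared ones at 1092 regions (11.8% of those tested). All 3 ranked below both at 1138 regions (12.3%). Ranks within lists of equal length centre every list alike, but the regions tested are only part of each list. The balance of the directions therefore depended on the setting. With lists of 7076 peaks, also of equal length, 615 regions were higher and 445 lower. On whole lists, of unequal length, 290 regions were higher and 2422 lower. The number of regions tested differs among these settings and is not given here, so these counts cannot be compared as shares. The cause of the changed balance was not tested. There are 10 ways to choose 3 of the libraries. If the libraries were exchangeable, each choice would rank on top equally often, and likewise at the bottom. Shares close to the observed 11.8% and 12.3% would thus arise without any effect of rearing. Whether the observed shares exceed them was not tested. The 1092 and 1138 regions, also used below for width, chromosome and non-activated peaks, therefore cannot be taken as a set of rearing differences. The observed shares are the background against which the regions described next are to be read. Each of those was picked for not overlapping and for a low p.

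**Figure D2:**
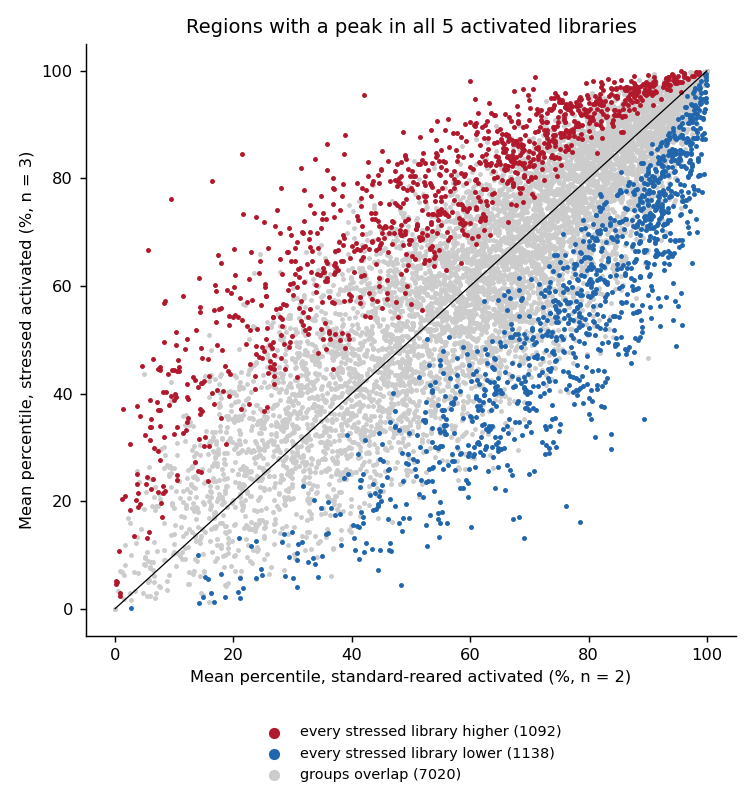
Mean percentile of fold in stressed activated libraries (vertical axis, n = 3) against that in standard-reared activated libraries (horizontal axis, n = 2), 1 point for each of the 9250 regions. The 1092 regions where every stressed library ranked higher lie above the diagonal and the 1138 where every one ranked lower lie below it, on both sides of 7020 regions whose groups overlapped.

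The 10 regions that ranked higher in stressed mice with the smallest p are called H1 to H10. They were 333 to 1769 bp wide, with a median of 696 bp, and all 10 also had a peak in every non-activated list. H1 lay on chromosome 3 (95495907 to 95496421). It stood at percentiles 91.7, 95.6 and 99.2 in stressed replicates 1 to 3, against 56.9 and 27.1 in standard-reared replicates 1 and 2. Its folds were 7.64, 10.45 and 11.04 in the stressed and 6.44 and 4.99 in the standard-reared libraries. At the summit these rested on 17, 21 and 21 fragments against 16 and 8. The lowest of these, 8 fragments in standard-reared replicate 2, has an exact Poisson interval of 3.45 to 15.8, which covers counting error only. The difference was 2.04 ± 0.39 normal-score units (SE, limma adjusted p = 0.119).

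H2, on chromosome 15 (44290794 to 44291908), had the tightest stressed values of the set. It stood at percentiles 98.2, 97.7 and 98.2 in stressed libraries and 62.0 and 58.0 in standard-reared libraries. Folds were 9.27, 11.3 and 10.2 in stressed and 6.80 and 6.66 in standard-reared libraries, a difference of 1.81 ± 0.36 (SE, limma adjusted p = 0.119). In both groups the site was thus above the middle of the list, and it was among the top few percent only in the stressed one. H4, on chromosome 16 (64671354 to 64673122), was the widest of the 10, at 1769 bp. It stood at 99.5, 98.4 and 99.0 in stressed and at 61.1 and 80.7 in standard-reared libraries. H9, on chromosome 3 (138148281 to 138149190), had 96.7, 89.0 and 98.4 in stressed and 59.7 and 61.9 in standard-reared libraries. These 3 regions were above the middle of every list.

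At H3, H5, H6 and H7 at least 1 standard-reared library placed the site at or under percentile 15.9. H3, on chromosome 9 (57376249 to 57376581), was a narrow site of 333 bp. It stood at percentiles 78.8, 64.9 and 84.9 in stressed libraries and 3.95 and 15.0 in standard-reared libraries. H5, on chromosome 15 (78058116 to 78058816), had the largest difference of the 20 regions, 2.17 ± 0.47 (SE, limma adjusted p = 0.119). Its percentiles were 81.2, 87.5 and 84.9 in stressed libraries and 1.93 and 41.1 in standard-reared libraries, so the 2 standard-reared animals were far apart. Its difference was 1.25 without standard-reared replicate 1. Without standard-reared replicate 2 it was 3.09, which passed the threshold in a fit with a single standard-reared library. H6 and H7 lay on chromosome 17, at 35339910 to 35340855 and 12387145 to 12387835. H6 had percentiles of 55.0, 69.4 and 75.8 in stressed and 6.35 and 4.78 in standard-reared libraries. H7 had 81.4, 74.2 and 83.1 in stressed and 15.9 and 16.7 in standard-reared libraries. At both sites the standard-reared animals lay within 2 points of each other and all stressed animals over 45 points above them. The others were H8 on chromosome 12 (85413052 to 85413410) and H10 on chromosome 7 (4869011 to 4869571). H8 had 94.9, 91.6 and 77.5 in stressed and 40.9 and 36.8 in standard-reared libraries. H10 had 86.2, 93.9 and 79.1 in stressed and 26.8 and 45.0 in standard-reared libraries. Fragments at the summit, not scaled for depth, overlapped between the groups at H4, H6 and H9. They were 46, 52 and 45 against 47 and 34 at H4, and 26, 37 and 29 against 27 and 17 at H6. At H9 they were 31, 34 and 34 against 34 and 24. At the other H regions every stressed library had more than both standard-reared ones. The fold also depends on the local background.

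The 10 regions that ranked lower in stressed mice with the smallest p, L1 to L10, were 420 to 773 bp wide. Of these, 3 had a peak in every non-activated list. L1, on chromosome 6 (133082078 to 133082783), was among the strongest sites of both standard-reared libraries. It stood at percentiles 73.0, 84.9 and 84.7 in stressed libraries and 99.7 and 99.5 in standard-reared libraries. Folds were 5.95, 8.56 and 7.47 in stressed and 13.3 and 13.3 in standard-reared libraries, from 13, 19 and 15 fragments against 40 and 31 at the summit. The difference was -1.73 ± 0.37 (SE, limma adjusted p = 0.119). L6 on chromosome 2 (80145694 to 80146455) and L9 on chromosome 1 (5153089 to 5153861) had the same form. L6 had 82.6, 68.2 and 82.6 in stressed and 99.7 and 97.1 in standard-reared libraries. L9 had 88.6, 74.6 and 78.1 in stressed and 99.8 and 97.1 in standard-reared libraries. All 3 were thus well inside the upper part of the stressed lists too.

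Stressed replicate 3, the only stressed female, was the lowest stressed library at several of the other L regions. L2, on chromosome 13 (81110925 to 81111406), had percentiles of 60.9, 73.4 and 24.2 in stressed libraries and 91.7 and 99.8 in standard-reared libraries. Its difference was -2.08 ± 0.44 (SE, limma adjusted p = 0.119), and it was -1.32 without standard-reared replicate 2. L8, on chromosome 16 (77440926 to 77441584), had 55.6, 75.4 and 15.8 in stressed and 95.7 and 93.9 in standard-reared libraries. L3 on the same chromosome (15411941 to 15412563) had 84.4, 73.2 and 52.4 in stressed and 99.6 and 97.2 in standard-reared libraries. L4, on chromosome 6 (28215137 to 28215812), had 68.8, 61.2 and 46.3 in stressed and 97.9 and 93.5 in standard-reared libraries. That animal's library had the fewest peaks of the 5, and the part this has in these values was not tested. At L10, on chromosome 5 (17779390 to 17779896), stressed replicate 1 was the lowest, with 45.5, 89.3 and 57.8 in stressed and 98.9 and 96.0 in standard-reared libraries.

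L5 and L7 stood apart by low stressed values. L5, on chromosome 3 (96152375 to 96152794), had 33.8, 42.1 and 29.9 in stressed and 86.5 and 92.1 in standard-reared libraries. L7, on chromosome 15 (76460419 to 76460894), had 36.0, 6.36 and 5.84 in stressed and 79.8 and 77.3 in standard-reared libraries. Its folds were 4.36, 4.01 and 3.49 in stressed and 8.21 and 8.24 in standard-reared libraries, and its difference was -1.94 ± 0.48 (SE, limma adjusted p = 0.258). Over the 20 regions the size of the difference ranged from 1.47 to 2.17 and the adjusted p from 0.119 to 0.258. The 7 regions that limma called with sex as a term were H1 to H5, L2 and L3, with adjusted p of 0.0331 to 0.0374. They were singled out after their values were seen.

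**Figure D3:**
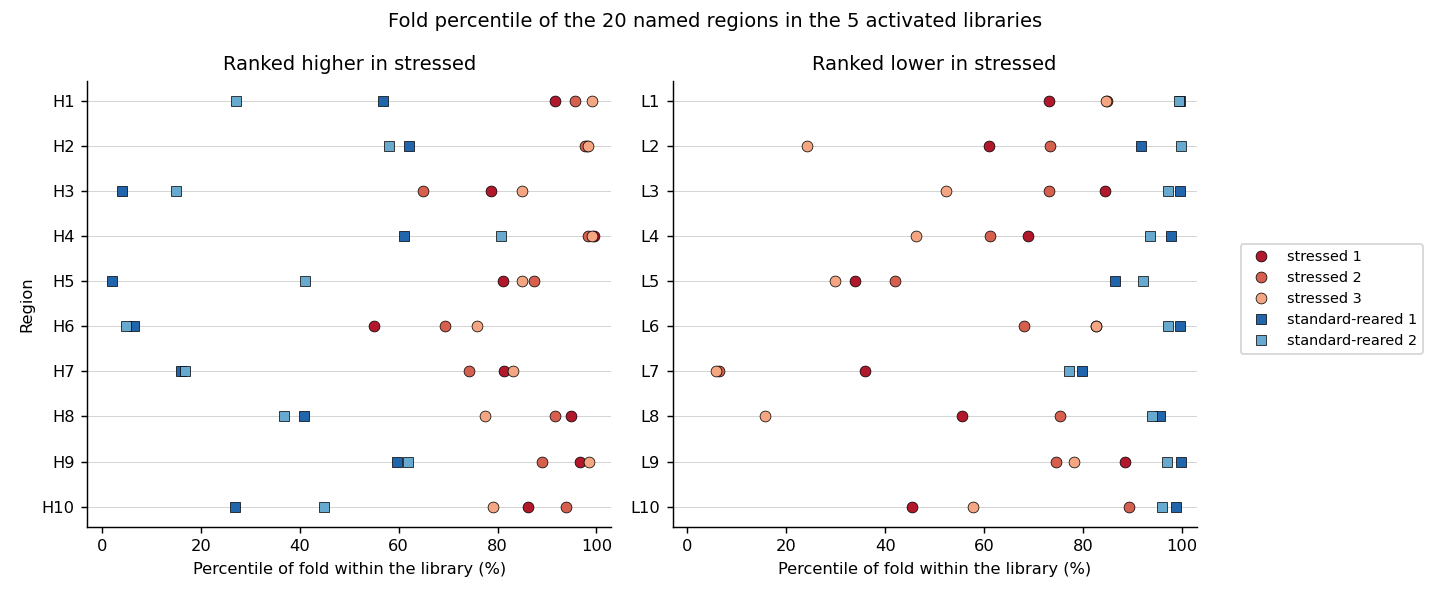
Percentile of fold within each activated library (horizontal axis) for H1 to H10 (left) and L1 to L10 (right). Circles are the 3 stressed and squares the 2 standard-reared libraries, 1 animal each. At H7 the stressed animals sit at 74.2 to 83.1 and the standard-reared ones at 15.9 and 16.7, while at L7 the stressed ones sit at 5.84 to 36.0 and the standard-reared ones at 79.8 and 77.3.

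Some regions had a peak in 1 rearing group only. In the shortened lists 193 regions (0.841% of 22947) had a peak in every stressed library but none in the standard-reared ones. The converse held for 427 regions (1.86%). The second condition needs a peak in 2 libraries and the first in 3, so the counts do not compare the groups. These were narrow and weaker sites, with a median width of 361 bp on the stressed and 468 bp on the standard-reared side. Median percentiles were 31.4 to 34.7 in the stressed libraries for the first kind and 21.4 and 20.6 in the standard-reared libraries for the second. In the whole lists, 88 of the 193 still had no peak in either standard-reared library and 276 of the 427 none in a stressed library. The whole list of stressed replicate 3 is its shortened one, so it could add none.

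Among the stressed-only regions, the one that ranked highest in its weakest library was on chromosome 2 (117516346 to 117516740). It stood at percentiles 84.4, 80.6 and 66.8 in stressed libraries, with 15, 16 and 11 fragments at the summit, and had no peak in the whole list of either standard-reared library. The next of that order were at 112040410 to 112040936 and 49887331 to 49887624 of the same chromosome, 72922473 to 72922812 of chromosome 10, and 30622812 to 30623109 of chromosome 11. Of these, the region at 112040410 had a peak in the whole list of standard-reared replicate 1, and the other 3 had none in a standard-reared activated list. The standard-reared-only region that ranked highest was on chromosome 13 (25453747 to 25454183), at percentiles 71.8 and 75.05 in standard-reared libraries, with 20 and 14 fragments at the summit. It was followed by a second site there (107967727 to 107968006), then by 31837181 to 31837462 of chromosome 9, 136555970 to 136556374 of chromosome 2, and 43883514 to 43883882 of chromosome 16. All but the last had a peak in the whole list of stressed replicate 1 or 2, at percentiles of 5.68 to 24.6 there. A peak just past the end of a shortened list counts as none.

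Genomic class was described by what the files hold. Promoter, exon, intron and intergenic classes, gene lists, sequence motifs and sequences were not analysed here, because the gene and promoter tables at hand are of build GRCm38.p6 and the peaks of mm39. For the same reason the tissue could not be checked against marker genes of dopamine neurons or other cells. By width, regions over 1000 bp made up 35.9% of those that ranked higher in stressed mice, 19.5% of those that ranked lower and 25.3% of all tested. The regions were also divided by width into 5 bins of about equal number. In the widest bin (1065 to 3677 bp), 18.2% of regions ranked higher and 8.50% lower. In the 3 bins between the narrowest and the widest the order turned, with 9.43% to 10.2% higher and 13.1% to 14.5% lower. Standard-reared replicate 1 was apart in the widest bin. Its median percentile there was 66.3, against 72.6, 72.2 and 74.3 in stressed libraries and 71.4 in standard-reared replicate 2. Without it the widest bin had 26.4% higher and 23.7% lower, against 23.5% and 26.9% over all regions tested. Regions over 1000 bp were then 14.2% of the higher, 9.71% of the lower and 11.98% of all tested, so both leans were smaller but kept their direction. That library was the deepest and had the widest peaks, with a median of 618 bp, against 314 to 443 bp in the other 4. Stressed replicate 1 was next in depth, at 10.1 against 10.9 fragments per kb, and had the narrowest peaks, with a median of 314 bp. The part of depth in these leans was not tested.

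**Figure D4:**
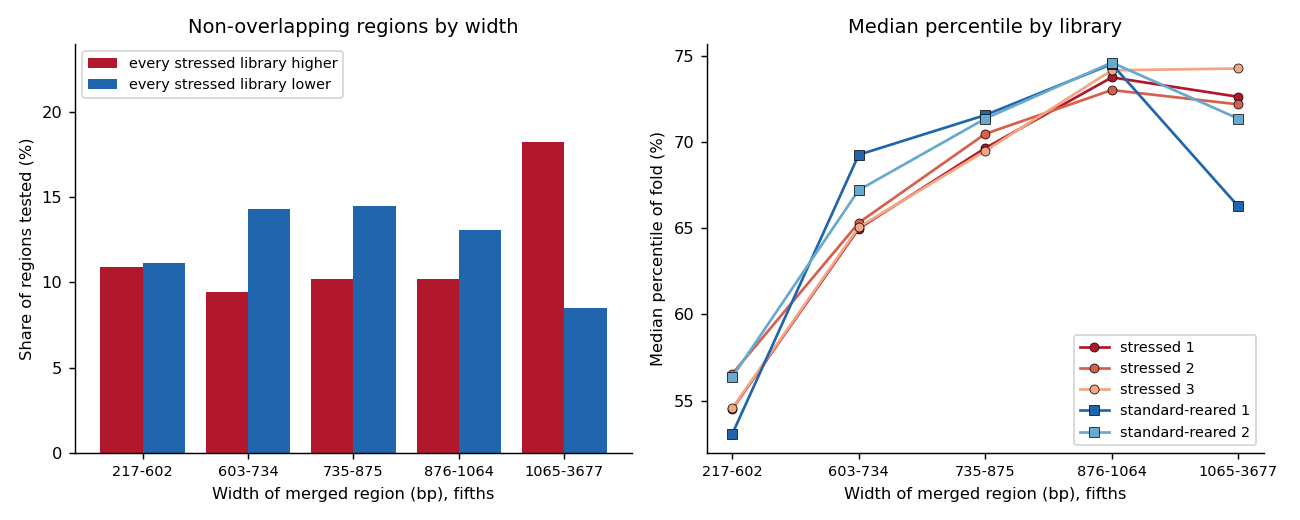
Share of tested regions where every stressed library ranked higher or lower than both standard-reared ones, by 5 bins of region width in bp (left), and the median percentile of fold of the same bins in each library (right, axis not from 0). In the widest bin 18.2% ranked higher and 8.50% lower, and standard-reared replicate 1 had a median of 66.3 while the other 4 libraries had 71.4 to 74.3.

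The non-activated lists of the series gave a second description of these regions. A peak in all 5 of them was found at 45.9% of the regions that ranked higher in stressed activated nuclei, at 24.6% of those that ranked lower and at 32.1% of all tested. Without standard-reared activated replicate 1 these shares were 23.1%, 18.8% and 20.4%. With any 1 of the other 4 activated libraries left out they were 37.7% to 41.7% for the higher and 21.3% to 23.0% for the lower. The stressed-only and standard-reared-only regions had a peak in all 5 non-activated lists at 3.11% and 0%. Whether the same rearing difference held in non-activated nuclei was read from lists of 7076 peaks each. The stressed non-activated libraries came from 2 males and 1 female and both standard-reared ones from females, so rearing and sex are partly confounded there. Of the higher regions, 626 had a value in every non-activated library, and at 177 of them (28.3%) the mean percentile was higher in stressed mice. Of the lower regions 313 had one, and at 145 (46.3%) it was higher in stressed mice. Over all 3607 regions with such values the share was 35.8%. Lower in stressed mice was thus the more frequent direction in non-activated nuclei for both kinds of region, and over all regions with values. The part that depth or fragment length of the non-activated libraries has in this was not tested. As 4 animals gave both classes, the activated and non-activated libraries are not independent.

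Chromosomes differed in their balance of the directions. On chromosome 5, 96 of 615 tested regions (15.6%) ranked higher in stressed mice and 48 (7.80%) lower. On chromosome 7 these were 102 (15.6%) and 48 (7.33%) of 655. Chromosome 2 leaned the other way, with 67 (9.08%) higher and 108 (14.6%) lower of 738. These chromosomes were singled out after their values were seen. On chromosome 5 the median percentiles were 70.1, 68.9 and 67.8 in stressed and 66.8 and 67.5 in standard-reared libraries, so the groups lay within 4 points of each other. On chromosome 7 they were 60.4, 63.5 and 62.3 in stressed and 54.5 and 62.4 in standard-reared libraries, so standard-reared replicate 2 lay among the stressed libraries. With standard-reared replicate 1 left out, chromosome 7 had 25.8% higher and 24.5% lower, against 23.5% and 26.9% over all regions tested. Chromosome 5 had more regions higher than lower, and chromosome 2 fewer, with any 1 of the 5 libraries left out. On X, 28 of 200 regions (14%) ranked higher and 12 (6%) lower. Without standard-reared replicate 2, a female, X had 21.6% higher and 24.02% lower, against 29.4% and 26.0% over all regions tested.

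**Figure D5:**
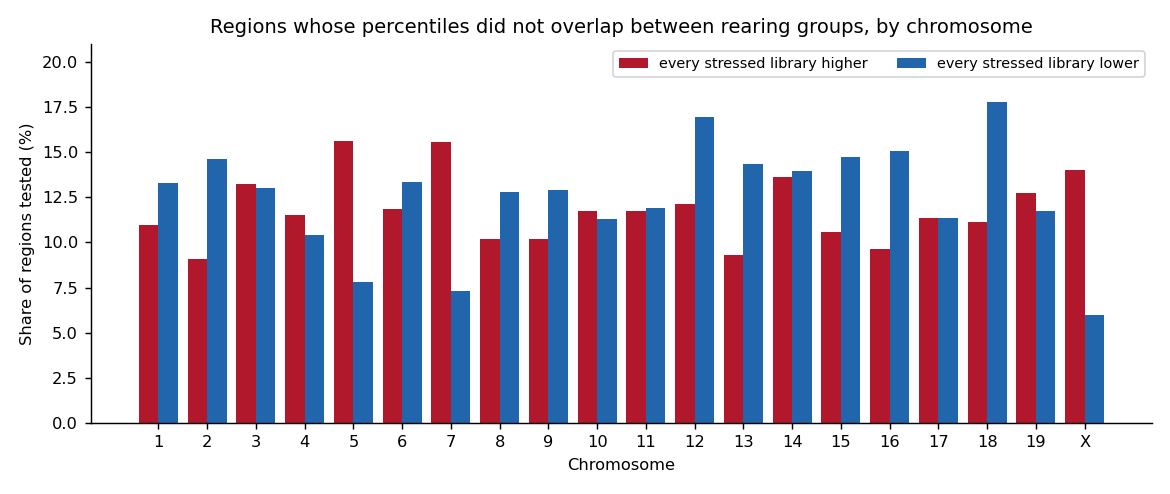
Share of tested regions on each chromosome where every stressed library ranked higher (red) or lower (blue) than both standard-reared ones. Chromosomes 5 and 7 had 15.6% of regions higher each and 7.80% and 7.33% lower, and chromosome 2 had 9.08% higher and 14.6% lower. Chromosome Y, with 1 region, is left out.

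Neighbouring regions were compared for direction. Among non-overlapping regions, 231 neighbouring pairs lay within 50 kb, of which 54 were both higher, 71 both lower and 106 opposite. The same direction was shared by 54.1% of these pairs, by 39.5% of the 43 pairs within 10 kb and by 55.1% of the 408 within 100 kb. With 1092 regions higher and 1138 lower, pairs formed without regard to place would share a direction about as often as not. Whether the observed shares differ from that was not tested.

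Libraries of the same rearing had a slightly higher mean correlation. Over the 9250 regions, Pearson's r of the normal scores was 0.675 to 0.726 for the 3 stressed pairs, 0.699 for the standard-reared pair and 0.619 to 0.697 for the 6 pairs across rearing. The mean was 0.703 for stressed pairs and 0.663 across. The mean within rearing groups minus that across was 0.0389, and 0.0195 without standard-reared replicate 1. By regions shared, the most alike pair was one across rearing, stressed replicate 2 and standard-reared replicate 2, with 67.1%. These are correlations across regions, which are not independent replicates, and they overlap in range. The lowest value joined stressed replicate 3 and standard-reared replicate 1, the lists of 15128 and 39783 peaks. At most 1 interval was identical between any pair of lists. The mean absolute difference in percentile was 14.5 to 16.2 points within stressed, 15.4 within standard-reared and 14.9 to 17.6 points across rearing.

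The exact permutation test of 3 against 2 libraries cannot give a p under 0.2, so no value of whole libraries could pass it. The median fold of the shortened lists was 4.83, 5.82 and 5.13 in stressed and 6.06 and 6.14 in standard-reared libraries. Every stressed library was thus lower, with a mean difference of -0.836, but on whole lists the difference was 0.0690. Its p was the smallest that 3 against 2 allows (exact permutation, two-sided, p = 0.2, which became 0.5 when adjusted for the 5 values tested). Median peak width was 367 ± 67.3 bp in stressed (SD, n = 3) and 514 ± 147 bp in standard-reared libraries (SD, n = 2; exact permutation p = 0.4). The difference of -147 bp was -42.7 bp without standard-reared replicate 1, -251 bp without standard-reared replicate 2 and 20.7 bp on whole lists. Covered length was 6.32 ± 0.895 Mb in stressed and 8.34 ± 2.15 Mb in standard-reared libraries (exact permutation p = 0.4). The difference of -2.02 Mb was -0.498 Mb without standard-reared replicate 1 and -3.54 Mb without standard-reared replicate 2. The share of peaks in regions of all 5 libraries was 66.8% ± 2.85 in stressed and 63.5% ± 2.31 in standard-reared libraries (exact permutation p = 0.4). That difference of 3.31 points was 1.74 without standard-reared replicate 1 and 21.9 on whole lists. X held 2.47% ± 0.390 of peaks in stressed and 2.67% ± 0.50 in standard-reared libraries (exact permutation p = 0.6), and the direction turned on whole lists and without standard-reared replicate 2. Within females the X share was 2.86% in stressed and 3.02% in standard-reared animals, and within males 2.08% and 2.46% in stressed and 2.31% in standard-reared ones.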

How the data were processed

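Peak lists of 5 bulk ATAC-seq libraries were compared, with the 5 non-activated lists as a description. The submitters' processing notes name the build mm39, with MACS2 2.2.9.1, R 4.4.2, Bowtie2 2.4.5, fastp 0.23.4 and SAMtools 1.13. The sources used here state no calling settings, read shifting or duplicate removal, each of which could change which peaks were called. The authors deposited 1 list per library. Its fold is a linear ratio of summit pileup to local background, its p-value and q-value are given as -log10, and its deposited score is 10 times the -log10 q. All are the authors' values, used only within a list.

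Distinct intervals on chromosomes 1 to 19, X and Y were kept, with the highest fold and q of a repeated interval. Lists were shortened to 15128 by -log10 q. Intervals that shared 1 bp were merged. A region took the highest rank of fold of its peaks, ties sharing a mean rank. Regions with a peak in all 5 lists were tested, because a list gives no value where no peak was called. limma 3.58.1 (R 4.3.3, trend) was run on normal scores, two-sided, without covariates, with Benjamini-Hochberg adjustment. Library values had a two-sided exact permutation test over the 10 regroupings. Fragments at a summit were solved from fold and p with a pseudocount of 1, and a whole number was found for 100% of peaks within a relative misfit of 2e-05. Named were the 10 regions per direction with the smallest p among those whose groups did not overlap, the top 5 of 1 group only and the top 5 over all lists. Positions are 1-based. The steps were tested on simulated data. Members, lists and rules were chosen with earlier results of these data known. Alternatives were other list lengths, orders, overlaps, ranks and fits, and each library left out. The scripts ran under Python 3.11.15 with SciPy 1.17.1, Matplotlib 3.10.9, pandas 2.3.3, NumPy 2.4.6 and statsmodels 0.14.6.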

Additional observations from a re-analysis of the deposited data

How the results depend on the processing

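The count of 0 regions called by limma became 3 with whole lists, 3 with lists of 7076 peaks, 2 by rank of -log10 q, 7 with sex as a term, 2 with log2 fold and quantile normalization, and 0 to 1 with a library left out, 1 being reached without stressed replicate 1 or standard-reared replicate 2. With a standard-reared library left out, the lone one is assumed to vary like the stressed group. It was 0 in the other alternatives. The replicate numbers mark different animals. Same-numbered libraries had correlations of deviations of 0.0901 and 0.0255, and different-numbered ones -0.0901, -0.0255, -0.0706 and 0.0706. The deviations of 2 standard-reared libraries mirror each other, so every value comes with its opposite. The fit with a replicate block called 0 regions. Of 390 values of H1 to H10 and L1 to L10 under alternatives, 17 passed the threshold, and 30 further ones could not be had. Their signs all held, which the choice of regions with groups that do not overlap largely fixes.

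Regions with non-overlapping groups numbered 290 higher and 2422 lower in stressed mice on whole lists, where percentiles come from lists of unequal length. They were 615 and 445 with 7076 peaks, 556 and 503 when a peak had to cover 50% of its region (chosen after seeing the data), and 2108 lower with absent peaks ranked last. With a library left out they were 1692 to 2786 higher and 1824 to 2605 lower, of 9466 to 9767 regions tested. As shares these were 17.67% to 29.43% and 19.05% to 26.86%, against 11.8% and 12.3% in the main setting, since fewer libraries make overlap rarer. The number of regions tested under the other settings is not given here, so their counts cannot be read as shares. Regions of stressed lists only were 92 on whole lists and 344 to 646 with a library left out. Regions of standard-reared lists only were 1007 on whole lists, 216 with 7076 peaks, 780 under the 50% limit and 625 to 2394 with a library left out.

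On whole lists the differences in median width (20.7 bp), median fold (0.0690) and X share (0.119 points) turned sign. The X share also turned with 7076 peaks (0.264), and it ranged from -0.553 to 0.154 with a library left out. The cause was not tested. The planned limit of 50% of the shorter of peak and region is met by every peak of a merged region and changed nothing. Promoter distances and motif windows were not run, as no mm39 annotation or sequence was used here. Summit pileups of 7 to 53 fragments at the 20 named regions limit the precision of a single fold, and libraries from 5 animals that of the test.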
